A study of Homo sapiens with 6 samples.

Results

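The 30 genes described here encode the enzymes that build cholesterol and long-chain fatty acids and the proteins that regulate them. They were chosen by name, as a list, and each was found once among the 59008 gene symbols of a deposited table of transcript levels. Of the 30, 17 belong to sterol synthesis, 5 to its regulation and transport, and 8 to fatty acid synthesis and desaturation. All 30 had a mean level of at least 1 TPM (transcripts scaled to a fixed total, a share of all transcripts of a library) over the 6 libraries and were among the 14988 genes that passed this filter.

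The libraries came from Hey and SKOV3, a pair of human ovarian cancer cell lines grown in different media (MEM Eagle and RPMI-1640) with fetal bovine serum. Each line was sampled in 3 states with 1 library per state, so that no state had a replicate within a line. Parental cells were untreated, polyploid giant cancer cells (PGCCs) had received 500 nM paclitaxel for 16 h followed by 3 days of recovery, and daughter cells were clone 1 of the cells that budded after the same treatment and 30 days of recovery. The title of the SKOV3 PGCC library gives day 7 and its treatment label gives 3 days, so its time of collection is uncertain, and paclitaxel exposure and time in culture cannot be told apart from the cell state.

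Cholesterol is made from acetyl-CoA through the mevalonate pathway, which yields farnesyl diphosphate, then squalene, then lanosterol, and finally cholesterol by a series of demethylations, reductions and isomerisations. Fatty acids are made from the same acetyl-CoA by carboxylation and repeated extension, and desaturases then introduce double bonds. The genes of both branches are classical targets of the sterol regulatory element-binding proteins (SREBPs), which are held in the endoplasmic reticulum with their escort SCAP by the INSIG proteins when sterols are plentiful and are released to the nucleus when sterols are scarce. In tumour cells both routes supply membrane for growth.

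The columns summed to between 911825 and 920497 TPM, and the mitochondrial transcripts took between 2.64% (Hey parental) and 14.8% (SKOV3 daughter) of a column. Without these transcripts the all-gene median in Hey, on the log2 scale described below, shifted from 0.00 to 0.11 for PGCCs against parental cells and from 0.05 to 0.11 for daughter cells. Of 10 epithelial markers, 5 to 10 per library reached 1 TPM, but in Hey the epithelial adhesion gene CDH1 was listed at 0 in parental cells and PGCCs and the ovarian antigen gene MUC16 stayed at or below 0.0322 TPM in all 3 states. The 6 leukocyte markers summed to at most 1.45 TPM and the 10 fibroblast markers to between 3.18 and 28.3 TPM. The 11 proliferation markers summed to 1358, 418 and 1786 TPM in Hey parental, PGCC and daughter cells, and to 2877, 1403 and 1676 TPM in the same states of SKOV3. TOP2A, CCNA2, CDK1, BUB1 and RRM2 of this list were at least 2-fold lower in PGCCs than in parental cells of both lines, and among the epithelial markers MSLN and KRT19 were lower and WT1 higher in daughter than in parental cells of both. The part of these genes in the results below was not tested, and in bulk RNA fewer cells of a type and less RNA per cell cannot be told apart.

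Together the 30 genes accounted for 1310 TPM in Hey parental cells, 861 TPM in Hey PGCCs and 1098 TPM in Hey daughter cells. In SKOV3 they accounted for 1509 TPM in parental cells, 1811 TPM in PGCCs and 2036 TPM in daughter cells. Hey PGCCs therefore had the lowest sum of the 6 libraries and SKOV3 daughter cells the highest. The 8 fatty acid genes went from 435 TPM in Hey parental cells to 196 TPM in Hey PGCCs and 374 TPM in Hey daughter cells, whereas in SKOV3 the same sums were 377, 499 and 520 TPM. The 17 sterol genes summed to 737, 578 and 627 TPM in Hey parental, PGCC and daughter cells, and to 1046, 1203 and 1354 TPM in SKOV3.

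**Figure D1:**
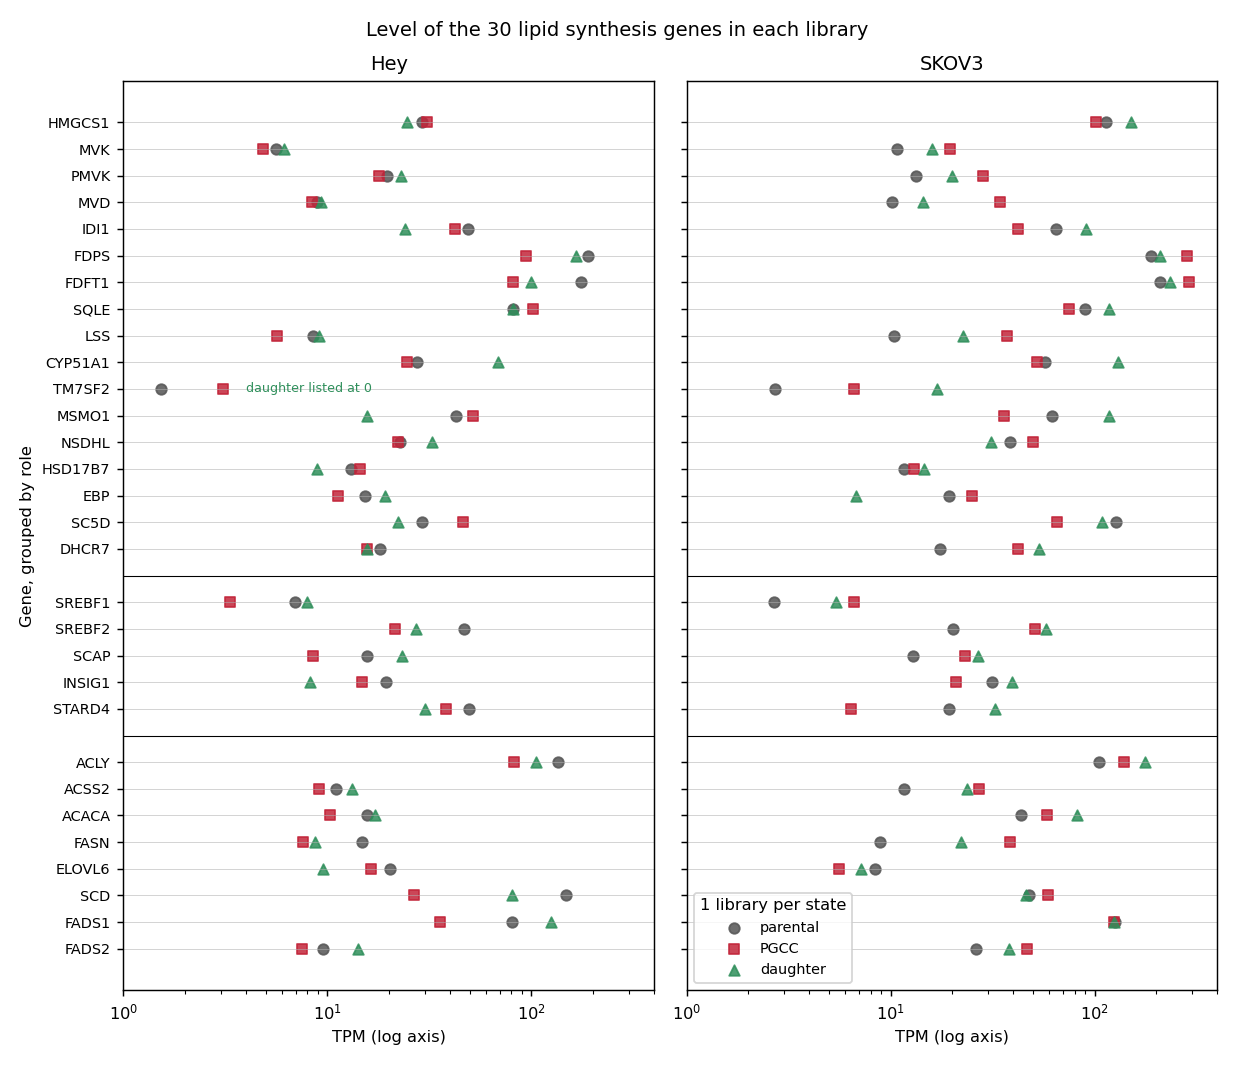
The level of each gene in TPM (log axis) is plotted for Hey (left) and SKOV3 (right), with 1 point per library: circles are parental cells, squares PGCCs and triangles daughter cells. SCD in Hey went from 149 TPM in parental cells to 26.5 TPM in PGCCs, and TM7SF2 in Hey daughter cells, listed at 0, has no point.

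The sequence just upstream of a gene's start is where sterol-responsive factors are known to bind, so it is shown for the genes on which the comparisons turn. RefSeq (GRCh38.p14) gave a promoter for 27 of the 30 genes, and FDFT1, SQLE and FASN had no entry. The 250 bases before each listed start were searched on both strands for 3 motifs. These were TCACNCCAC (a form of the sterol regulatory element), CCAAT (the box bound by NF-Y, a partner of the SREBPs) and GGGCGG (the GC box bound by Sp1). Some genes had several listed starts, and any gene was counted as holding a motif if any of its starts did. Genes with more starts thus had more opportunities to match. None of the 3 motifs contains another, and a match describes the sequence and not a bound site. The CCAAT box was found in 20 of the 27 genes (74.1%), against 37% of 27305 genes with a promoter, and the GC box in 26 of the 27 (96.3%), against 46.2%. The sterol regulatory element in this form was found in 1 of the 27 (3.7%), SREBF2, against 1.09%. The 27305 genes were not filtered by level or matched for GC content, whereas all 27 had a mean of at least 1 TPM.

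The 5 printed sequences run 5′ to 3′ on the strand of the gene and end at the base before its start, and capitals mark the sterol regulatory element or a CCAAT box on either strand. SREBF2 lies at chr22:41832855-41833104 on the plus strand, SCD at chr10:100346983-100347232 (plus), MSMO1 at chr4:165327419-165327668 (plus), LSS at chr21:46228775-46229024 (minus) and CYP51A1 at chr7:92134478-92134727 (minus).
SREBF2: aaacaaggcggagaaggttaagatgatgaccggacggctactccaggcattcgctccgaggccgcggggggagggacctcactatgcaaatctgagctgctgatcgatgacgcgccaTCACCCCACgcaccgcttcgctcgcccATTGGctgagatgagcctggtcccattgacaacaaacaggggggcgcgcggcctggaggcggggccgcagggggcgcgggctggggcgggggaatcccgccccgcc
SCD: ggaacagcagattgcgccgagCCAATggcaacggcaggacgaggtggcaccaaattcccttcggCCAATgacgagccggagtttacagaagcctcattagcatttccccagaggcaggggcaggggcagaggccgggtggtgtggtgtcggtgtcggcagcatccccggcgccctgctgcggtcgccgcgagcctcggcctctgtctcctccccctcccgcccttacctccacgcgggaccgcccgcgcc
MSMO1: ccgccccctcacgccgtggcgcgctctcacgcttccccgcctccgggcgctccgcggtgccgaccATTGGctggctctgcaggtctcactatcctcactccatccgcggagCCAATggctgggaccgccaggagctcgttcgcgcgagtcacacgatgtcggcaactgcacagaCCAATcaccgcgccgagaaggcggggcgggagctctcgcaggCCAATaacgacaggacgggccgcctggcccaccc
LSS: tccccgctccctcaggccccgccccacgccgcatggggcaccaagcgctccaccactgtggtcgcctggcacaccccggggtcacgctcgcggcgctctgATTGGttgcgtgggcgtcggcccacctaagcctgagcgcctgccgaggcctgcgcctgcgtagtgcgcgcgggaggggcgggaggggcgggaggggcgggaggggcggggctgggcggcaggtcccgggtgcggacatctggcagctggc
CYP51A1: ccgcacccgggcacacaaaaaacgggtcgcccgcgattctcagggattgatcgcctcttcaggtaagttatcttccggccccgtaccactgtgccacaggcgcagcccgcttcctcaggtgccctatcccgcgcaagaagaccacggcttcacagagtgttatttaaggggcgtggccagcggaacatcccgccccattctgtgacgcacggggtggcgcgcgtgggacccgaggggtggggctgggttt
SREBF2 held the sterol regulatory element 133 bases and a CCAAT box 106 bases before its start. MSMO1 held 4 CCAAT boxes, SCD held 2 and LSS held 1, while CYP51A1 held neither motif in this window.

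The first comparison asked how the genes stood in PGCCs relative to untreated cells. Differences are given on the log2(TPM + 1) scale, on which 1 is 2-fold and which understates the change of weakly expressed genes. In Hey PGCCs none of the 30 genes was at least 2-fold higher than in parental cells, where 7.67% of the 14988 tested genes were, and 4 were at least 2-fold lower, where 5.22% of all genes were. Those 4 genes were SCD, FADS1, FDFT1 and SREBF2. In SKOV3 PGCCs 9 genes were at least 2-fold higher, against 9.94% of all genes, and 1 was at least 2-fold lower, against 4.96%. The 9 were FASN, LSS, MVD, SREBF2, DHCR7, ACSS2, SREBF1, PMVK and TM7SF2, and the 1 was STARD4. The median difference of the 30 genes was -0.30 in Hey, against 0.00 over all tested genes, and 0.42 in SKOV3, against 0.02.

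The lines moved in opposite directions for 22 of the 30 genes, of which 18 were lower in Hey PGCCs and higher in SKOV3 PGCCs. 2 were higher in both and 6 were lower in both, and no gene was 2-fold changed the same way in both lines, as were 1.67% of all tested genes. In opposite directions went 73.3% of the 30 genes and 48.6% of all 14988, in which 25.2% were higher in both and 22.3% lower in both. With mitochondrial transcripts left out the count of opposite genes among the 30 was 19, and after a smooth trend on transcript GC content and length over all tested genes was subtracted (called the trend subtraction here) it was 21. The share of all tested genes in opposite directions was not computed under these 2 settings.

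**Figure D2:**
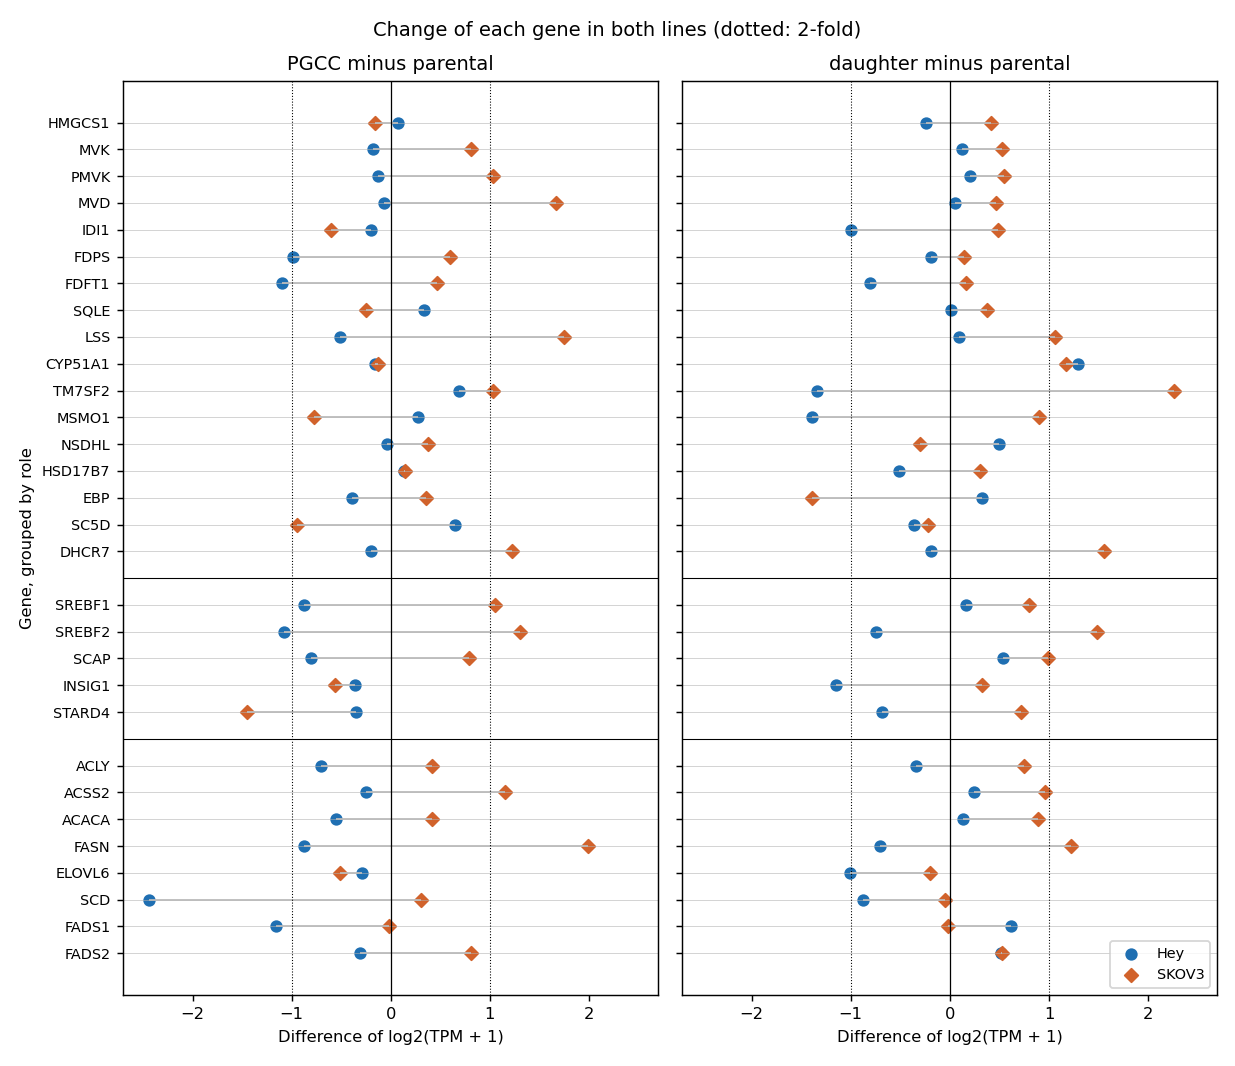
Each gene's difference of log2(TPM + 1) is plotted for PGCC minus parental (left) and daughter minus parental (right), with Hey as circles, SKOV3 as diamonds and dotted lines at 2-fold. On the left the SKOV3 points of FASN (1.99), LSS (1.75) and MVD (1.67) lie far to the right of their Hey points, and on the right CYP51A1 is the 1 gene past 2-fold in the same direction in both lines.

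The largest difference in Hey PGCCs was that of SCD, the stearoyl-CoA desaturase that makes oleate and palmitoleate. SCD stood at 149 TPM in Hey parental cells, 26.5 TPM in PGCCs and 80.6 TPM in daughter cells, and at 47.6, 58.9 and 46.1 TPM in the same states of SKOV3. From parental cells to PGCCs this made a difference of -2.44 in Hey and 0.30 in SKOV3. FADS1, the delta-5 desaturase of polyunsaturated fatty acids, stood at 80.5, 35.6 and 124 TPM in Hey parental, PGCC and daughter cells. In SKOV3 its levels, 126, 124 and 125 TPM, were nearly level across the states. For FADS1 the PGCC difference was -1.15 in Hey and -0.02 in SKOV3. FADS2, the delta-6 desaturase that acts before it, stood at 9.54, 7.52 and 14.1 TPM in Hey and at 26.1, 46.4 and 37.9 TPM in SKOV3. FADS1 and FADS2 overlap on opposite strands of chromosome 11, and since it is not stated whether the libraries kept the strand, reads from their shared part cannot be told apart.

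FASN, the synthase that assembles palmitate, stood at 14.8 TPM in Hey parental cells, 7.61 TPM in PGCCs and 8.74 TPM in daughter cells. In SKOV3 it stood at 8.92, 38.3 and 22.2 TPM, so that the same comparison gave -0.88 in Hey and 1.99 in SKOV3, the highest value of the 30 genes in SKOV3 PGCCs. ACACA, the acetyl-CoA carboxylase that makes malonyl-CoA, stood at 15.6, 10.3 and 17.2 TPM in Hey and at 43.7, 58.7 and 81.8 TPM in SKOV3. Both enzymes were thus lowest in PGCCs in Hey and lowest in parental cells in SKOV3. ACLY, which releases acetyl-CoA from citrate, showed this order too, with 135, 82.7 and 106 TPM in Hey and 104, 140 and 176 TPM in SKOV3. ACSS2, which makes acetyl-CoA from acetate, stood at 11.03, 9.10 and 13.2 TPM in Hey and at 11.6, 27.2 and 23.6 TPM in SKOV3. ELOVL6, which lengthens palmitate, was the exception among the fatty acid genes, since it was below its parental level in both states of both lines, with 20.3, 16.4 and 9.58 TPM in Hey and 8.42, 5.59 and 7.19 TPM in SKOV3. All 8 fatty acid genes were below their parental level in Hey PGCCs, with a median difference of -0.63, and this count held under median-ratio scaling (each library divided by its median ratio to the gene-wise mean), without mitochondrial transcripts and with the trend on transcript GC content and length removed. In SKOV3 PGCCs 6 of the 8 were above it, with a median of 0.42. Of all 14988 tested genes, 7123 were below the parental level in Hey PGCCs and 7661 were above it in SKOV3 PGCCs.

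Both SREBP genes moved in opposite directions between the lines. SREBF2, whose product acts chiefly on cholesterol synthesis, stood at 46.7, 21.6 and 27.4 TPM in Hey parental, PGCC and daughter cells and at 20.2, 51.2 and 58.1 TPM in SKOV3. Parental Hey cells were the highest of their line and parental SKOV3 cells the lowest of theirs. The PGCC difference was -1.08 in Hey and 1.30 in SKOV3. In Hey it was -0.94 without mitochondrial transcripts and -0.90 after the trend subtraction, both inside 2-fold. SREBF1, whose product acts chiefly on fatty acid synthesis, stood at 6.99, 3.35 and 7.92 TPM in Hey and at 2.69, 6.63 and 5.42 TPM in SKOV3, giving PGCC differences of -0.88 and 1.05. SCAP, the sterol-sensing escort of both, stood at 15.7, 8.52 and 23.2 TPM in Hey and at 12.9, 23.1 and 26.7 TPM in SKOV3. For all 3 genes PGCCs lay below parental cells in Hey and above them in SKOV3. After the trend subtraction the SKOV3 PGCC differences were 0.59 for SREBF2, 0.04 for SREBF1 and -0.10 for SCAP, so that neither SREBP gene was 2-fold changed and SCAP turned its direction.

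INSIG1, which retains SCAP and is itself an SREBP target, behaved otherwise. It stood at 19.3, 14.9 and 8.19 TPM in Hey parental, PGCC and daughter cells and at 31.3, 20.8 and 39.5 TPM in SKOV3, so that it was lower in PGCCs than in parental cells of both lines by less than 2-fold. STARD4, a cytosolic sterol carrier and also an SREBP target, stood at 49.3, 38.3 and 30.2 TPM in Hey and at 19.2, 6.38 and 32.4 TPM in SKOV3. Its difference of -1.46 in SKOV3 PGCCs was the lowest of the 30 genes there and was -0.77 after the trend subtraction.

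In the mevalonate segment the kinases and the decarboxylase were higher in the SKOV3 PGCC library than in parental cells before base composition was accounted for. HMGCS1, the synthase that makes HMG-CoA, was close to its parental level in PGCCs of both lines, with 29.3, 30.9 and 24.6 TPM in Hey and 113, 102 and 151 TPM in SKOV3. MVK, mevalonate kinase, stood at 5.58, 4.82 and 6.15 TPM in Hey and at 10.7, 19.5 and 15.9 TPM in SKOV3. The next kinase, PMVK, stood at 19.7, 17.9 and 22.9 TPM in Hey and at 13.3, 28.3 and 19.96 TPM in SKOV3. MVD, which decarboxylates mevalonate diphosphate, stood at 8.90, 8.45 and 9.30 TPM in Hey and at 10.2, 34.5 and 14.4 TPM in SKOV3. These 3 consecutive enzymes were within 0.21 of parental cells in Hey in both other states, while in SKOV3 PGCCs they were 0.81, 1.03 and 1.67 higher on the log2 scale. After the trend subtraction these values were 0.05 for MVK, 0.37 for PMVK and 0.67 for MVD, none of them past 2-fold. IDI1, the isomerase that follows them, did not share this, with 48.9, 42.4 and 23.96 TPM in Hey and 64.7, 42.3 and 90.7 TPM in SKOV3.

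FDPS and FDFT1 were the most abundant sterol genes of the list in both lines, except in Hey PGCCs, where SQLE was higher. FDPS, which makes farnesyl diphosphate, stood at 189, 94.8 and 166 TPM in Hey and at 188, 285 and 209 TPM in SKOV3, and its difference in Hey PGCCs was -0.99, just inside 2-fold. FDFT1, squalene synthase, which commits farnesyl diphosphate to sterols, stood at 176, 81.7 and 99.8 TPM in Hey and at 208, 289 and 234 TPM in SKOV3. Its difference in Hey PGCCs was -1.09 and was -0.95 without mitochondrial transcripts. SQLE, the squalene epoxidase that follows, moved the other way in Hey PGCCs, with 81.0, 102 and 81.8 TPM in Hey and 89.9, 75.2 and 117 TPM in SKOV3.

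LSS, the cyclase that makes lanosterol and whose GC-rich promoter is printed above, stood at 8.51, 5.69 and 9.16 TPM in Hey and at 10.4, 37.2 and 22.8 TPM in SKOV3. DHCR7, the reductase of the last step to cholesterol, stood at 18.1, 15.6 and 15.7 TPM in Hey and at 17.4, 42.0 and 53.3 TPM in SKOV3. Both stood at similar levels in the parental cells of the lines, and in PGCCs and daughter cells both were higher in SKOV3 than in Hey. TM7SF2, a sterol reductase, was weakly expressed, with 1.53 and 3.07 TPM in Hey parental cells and PGCCs, and it was listed at 0 in Hey daughter cells. In SKOV3 it stood at 2.71, 6.58 and 16.8 TPM. MSMO1, the methyl sterol oxidase, stood at 42.8, 52.0 and 15.7 TPM in Hey and at 62.1, 36.0 and 117 TPM in SKOV3. SC5D, the sterol desaturase of the late pathway, was also above its parental level in Hey PGCCs and below it in SKOV3 PGCCs, with 29.0, 46.1 and 22.3 TPM in Hey and 127, 65.7 and 109 TPM in SKOV3. This order, the reverse of that of FASN and SREBF2, was shared by 4 genes in all: MSMO1, SC5D, SQLE and HMGCS1. HMGCS1 was close to 0 in both lines and turned from -0.16 to 0.29 in SKOV3 after the trend subtraction, which left 3.

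The remaining demethylation and isomerisation enzymes changed by less than 2-fold in PGCCs. NSDHL stood at 22.8, 22.2 and 32.5 TPM in Hey and at 38.4, 50.2 and 31.1 TPM in SKOV3. HSD17B7 stood at 13.1, 14.4 and 8.87 TPM in Hey and at 11.7, 13.0 and 14.6 TPM in SKOV3, and a near-identical copy, HSD17B7P2, reached 3.12 TPM, so that the level of HSD17B7 is uncertain to that extent. EBP, the sterol isomerase, stood at 15.2, 11.3 and 19.3 TPM in Hey and at 19.4, 25.1 and 6.74 TPM in SKOV3. In all, 20 pseudogene or antisense entries were listed for 7 of the 30 genes, and 19 of them stayed under 1 TPM in every library.

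The SKOV3 PGCC differences followed the base composition of the transcripts. Across the 30 genes the difference between SKOV3 PGCCs and parental cells had a Spearman correlation of 0.90 with the GC content of the canonical transcript, and across 13351 tested genes with a transcript the correlation was 0.72. These are correlations across genes of the same pair of libraries, and genes are not independent replicates. All 15 genes with a GC content of at least 50% were above their parental level, with a median difference of 1.03, and all 9 genes that were at least 2-fold higher were among them. Of the 15 genes below 50%, 5 were above and 10 below, with a median of -0.16. All tested genes with a transcript split alike. Of the 5699 at or above 50%, 4849 were above their parental level (median 0.57) and 1221 were at least 2-fold higher. Of the 7652 below 50%, 2046 were above and 5478 below (median -0.27). After the trend subtraction, 1 of the 30 genes was still at least 2-fold higher (LSS, 1.05) and none was 2-fold lower. Of the 13351 genes, 297 were then at least 2-fold higher and 345 at least 2-fold lower, so calls fell over all genes too. The value of FASN was 0.79, that of SREBF2 was 0.59 and that of MVD was 0.67. The 30 genes then had a median of 0.20. Their Spearman correlation with GC content was still 0.46 after the subtraction, against -0.007 over all genes with a transcript. The Hey PGCC differences did not follow GC content as those of SKOV3 did, with a Spearman correlation before subtraction of -0.20 over the 30 genes and -0.04 over all genes. There SCD and FADS1 remained at -2.37 and -1.08 and FDFT1 at -1.15 after the same subtraction. What gave the relation to GC content in the SKOV3 pair was not tested, and with 1 library per state a property of the library cannot be told apart from the state.

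**Figure D3:**
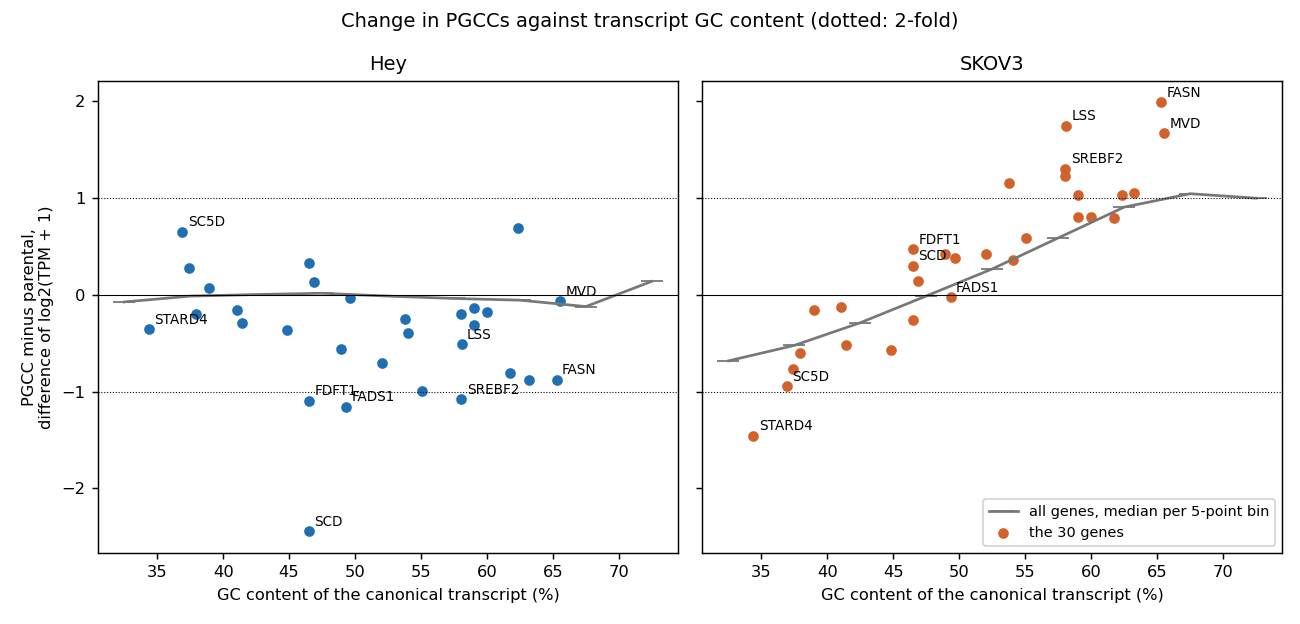
The difference between PGCCs and parental cells in log2(TPM + 1) is plotted against the GC content of each gene's canonical transcript (%) for Hey (left) and SKOV3 (right); points are the 30 genes and the grey line joins the median of all tested genes in bins of 5 percentage points. In SKOV3 the line climbs from -0.68 in the lowest bin to 1.05 between 65% and 70% GC and the 30 genes climb with it, whereas in Hey the line stays near 0 and SCD lies at -2.44.

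The second comparison asked whether the daughter cells had returned to the parental level. In Hey daughter cells 1 of the 30 genes was at least 2-fold higher than in parental cells (6.31% of all tested genes were) and 4 were at least 2-fold lower (3.73% were). The higher gene was CYP51A1 (1.29) and the lower genes were MSMO1 (-1.39), INSIG1 (-1.14), ELOVL6 (-1.01) and TM7SF2, which was listed at 0. In SKOV3 daughter cells 6 genes were at least 2-fold higher (15.1% of all genes) and 1 was lower (6.34%). The higher genes were TM7SF2 (2.26), DHCR7 (1.56), SREBF2 (1.48), FASN (1.22), CYP51A1 (1.17) and LSS (1.06), and the lower gene was EBP (-1.40). Once the trend on GC content and length was subtracted, FASN stood at 0.62 and LSS at 0.64. The median of the 30 genes was -0.19 in Hey, against 0.05 over all genes, and 0.53 in SKOV3, against 0.15. All 5 regulatory and transport genes were above their parental level in SKOV3 daughter cells, with a median of 0.80, and 2 of the 5 were in Hey. Of all 14988 tested genes, 8812 were above it in SKOV3 daughter cells and 8084 in Hey daughter cells. Directions differed between the lines for 16 of the 30 genes, 11 were higher in both and 3 lower in both. These shares of 53.3%, 36.7% and 10% stood beside 47.9%, 30.8% and 16% of all tested genes.

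CYP51A1, the lanosterol demethylase, was the 1 member that was 2-fold higher in the daughter cells of both lines. It stood at 27.5 TPM in Hey parental cells, 24.6 TPM in Hey PGCCs and 69.0 TPM in Hey daughter cells. In SKOV3 it stood at 57.1, 52.3 and 130 TPM. Parental cells and PGCCs lay close together in both lines and the daughter cells stood apart, and in SKOV3 the difference from parental cells was 0.96 under median-ratio scaling. CYP51A1 lies on chromosome 7 between positions 92084987 and 92134803 (GRCh38), and after this result was seen the genes around it were examined. The 14 tested genes within 1 Mb had median differences between daughter and parental cells of 1.29 in Hey and 0.74 in SKOV3, and 14 of them were higher in Hey daughter cells and 12 in SKOV3 daughter cells. The corresponding medians for the neighbours of the other 29 members ranged from -0.29 to 0.51 in Hey and from -0.41 to 0.83 in SKOV3. In PGCCs against parental cells the 14 neighbours had medians of -0.06 and -0.28. ABCB1, the gene of the drug efflux pump P-glycoprotein, for which paclitaxel is a substrate, lies outside that 1 Mb window. Its start is at -4.58 Mb from that of CYP51A1, and it was higher in daughter cells by 5.21 in Hey and 7.44 in SKOV3. The 16 tested genes with starts from -6 to -1 Mb, ABCB1 among them, had medians of 1.76 in Hey and 1.04 in SKOV3. CYP51A1 was thus not alone in being higher, and a part of its change particular to this gene cannot be told apart from the change of the region. The copy number of the region was not measured in the data used here, and the cause was not tested.

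**Figure D4:**
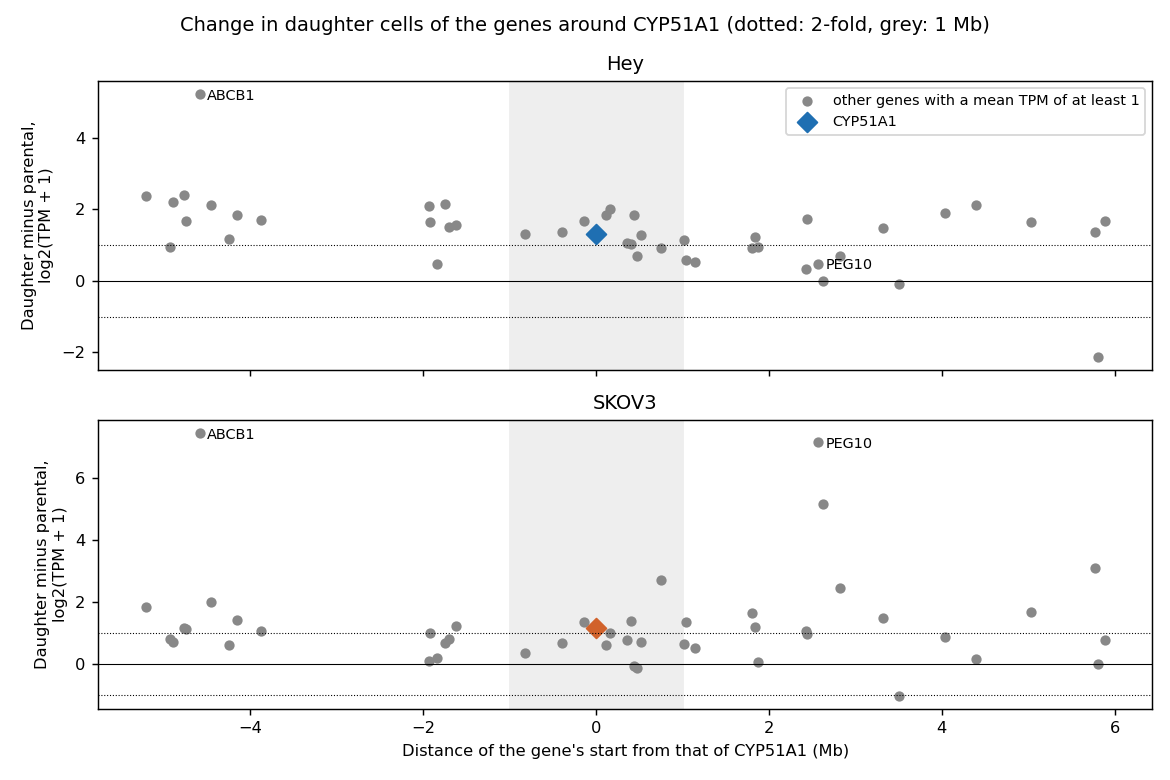
The difference between daughter and parental cells in log2(TPM + 1) is plotted for each tested gene within 6 Mb of CYP51A1 against the distance of its start from that of CYP51A1 (Mb), for Hey (top) and SKOV3 (bottom); the diamond is CYP51A1 and the grey band marks 1 Mb to either side. Most points lie above 0 in both lines, and ABCB1 is the highest point, at 5.21 in Hey and 7.44 in SKOV3.

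A direct comparison of PGCCs with daughter cells, which shares its libraries with the comparisons above, gave opposite changes past 2-fold in the lines for 2 genes, MSMO1 and TM7SF2. Of all 14988 tested genes, 426 changed so. Directions differed between the lines for 23 of the 30 genes (76.7%), against 52.2% of all tested genes. In Hey PGCCs 3 genes were at least 2-fold higher than in daughter cells (8.13% of all genes) and 5 were at least 2-fold lower (9.95%). The higher genes were MSMO1 (1.66), SC5D (1.02) and TM7SF2, listed at 0 in the daughter cells, and the lower genes were FADS1 (-1.78), SCD (-1.57), CYP51A1 (-1.45), SCAP (-1.35) and SREBF1 (-1.03). SREBF1 was at -0.77 after the trend subtraction, inside 2-fold. In SKOV3 PGCCs 2 genes were higher (9.25% of all genes), EBP (1.75) and MVD (1.20), and 5 were lower (14.6%). The lower genes were STARD4 (-2.18), MSMO1 (-1.67), CYP51A1 (-1.30), TM7SF2 (-1.23) and IDI1 (-1.08). After the trend subtraction MSMO1 was at 1.60 in Hey and -1.16 in SKOV3, still past 2-fold in both. After the trend subtraction in SKOV3, MVD was at 0.53, CYP51A1 at -0.86 and IDI1 at -0.56, so these 3 were no longer 2-fold changed.

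The untreated lines were compared in the same way. In Hey parental cells 5 genes were at least 2-fold higher than in SKOV3 parental cells (11.5% of all genes) and 5 were at least 2-fold lower (24.2%). The higher genes were SCD (1.62), STARD4 (1.31), ELOVL6 (1.18), SREBF2 (1.17) and SREBF1 (1.11). The lower genes were SC5D (-2.10), HMGCS1 (-1.92), ACACA (-1.43), FADS2 (-1.36) and CYP51A1 (-1.03), and CYP51A1 was at -0.71 under median-ratio scaling. Line and culture medium cannot be told apart in this comparison.

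The second line is the nearest thing to a repeat of a state, so both lines were also fitted together with limma on log2(TPM + 1), with cell line as a term and 2 residual degrees of freedom. None of the 30 genes had a Benjamini-Hochberg adjusted p under 0.05 by limma in PGCCs against parental cells (0.02% of all tested genes had), in daughter against parental cells (0.0133%) or in PGCCs against daughter cells (0%). At an unadjusted p under 0.05 the counts were 0 of the 30 in the first comparison (2.73% of all genes), 1 in the second (3.39%) and 1 in the third (5.06%). The 1 gene was CYP51A1 each time, with a limma difference of 1.23 (SE 0.354) and an adjusted p of 1 in daughter against parental cells, and of -1.38 (SE 0.354) and an adjusted p of 0.908 in PGCCs against daughter cells. SCD had the lowest p of the 30 in PGCCs against parental cells, with a limma difference of -1.07 (SE 0.627) and an unadjusted p of 0.13.

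Other genes of lipid metabolism were described with lists that hold none of the 30. Their counts are to be read against the shares of all tested genes past 2-fold, which in PGCCs were 7.67% higher and 5.22% lower in Hey and 9.94% higher and 4.96% lower in SKOV3, and in daughter cells 6.31% and 3.73% in Hey and 15.1% and 6.34% in SKOV3. After the trend subtraction, 297 of 13351 genes were at least 2-fold higher in SKOV3 PGCCs and 345 at least 2-fold lower. Of 10 further sterol and isoprenoid genes, 1 was at least 2-fold lower in PGCCs of both lines: LBR, a lamin receptor of the inner nuclear membrane that is also a sterol reductase. Its difference was -1.46 in Hey and -1.07 in SKOV3, and the SKOV3 value was -0.51 after the trend subtraction, inside 2-fold. LBR stood at 53.8, 18.9 and 33.1 TPM in Hey parental, PGCC and daughter cells and at 81.2, 38.1 and 61.2 TPM in SKOV3. TM7SF2, which catalyses the same reduction, was above its parental level in the PGCCs of both lines (0.69 in Hey and 1.03 in SKOV3) and stood below LBR in level in every library. None of the 10 was 2-fold higher in PGCCs of either line.

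Among 9 genes of sterol sensing and SREBP processing none was 2-fold changed in Hey PGCCs and 2 were lower in SKOV3 PGCCs, where 4.96% of all genes were. These were INSIG2, the second INSIG, at 40.5, 13.3 and 29.9 TPM in SKOV3 parental, PGCC and daughter cells and at 35.5, 49.9 and 18.4 TPM in Hey, and RNF139, a ubiquitin ligase of the endoplasmic reticulum, at 34.6, 13.5 and 34.7 TPM in SKOV3 and at 36.0, 45.1 and 32.3 TPM in Hey. Neither was 2-fold lower once GC content and length were accounted for. PAQR3, a Golgi anchor of SCAP, was 2-fold higher in Hey daughter cells, at 0.05, 0.69 and 3.22 TPM, and reached at most 0.273 TPM in SKOV3. Of 12 genes of sterol uptake, transport and esterification 1 was 2-fold lower in Hey PGCCs and none was 2-fold changed in SKOV3 PGCCs. It was TMEM97, a sterol-responsive membrane protein, at 24.2, 10.2 and 35.9 TPM in Hey and at 53.3, 40.0 and 70.4 TPM in SKOV3. SCARB1, a lipoprotein receptor, was the 1 gene of these 12 that was 2-fold higher in SKOV3 daughter cells, at 19.5, 38.8 and 40.3 TPM, and it stood at 15.4, 12.2 and 25.6 TPM in Hey. Its SKOV3 difference of 1.01 was 0.70 after the trend subtraction, inside 2-fold. Among 8 genes of the liver X receptors and sterol efflux 1 was 2-fold higher in SKOV3 PGCCs and none was 2-fold changed in Hey PGCCs. It was NR1H2, a liver X receptor, at 14.98, 35.5 and 13.1 TPM in SKOV3 and at 22.6, 18.9 and 13.8 TPM in Hey, with a difference of 1.19 in SKOV3 PGCCs that was 0.37 after the trend subtraction. ABCA1, the efflux transporter, was the 1 gene lower in SKOV3 daughter cells, at 6.397, 4.78 and 1.71 TPM, and it stood at 13.3, 18.2 and 16.3 TPM in Hey.

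Of 23 further genes of fatty acid synthesis 1 was 2-fold higher in Hey PGCCs and 3 in SKOV3 PGCCs, and none was lower in either, beside 7.67% and 9.94% of all genes that were higher, with 0 of the 3 left after the trend subtraction. Over all 3 comparisons the genes of that list with the largest changes were SCD5, a second stearoyl-CoA desaturase, and ELOVL4, an elongase. These changes were 1.99 for SCD5 in SKOV3 daughter against parental cells and 1.51 for ELOVL4 in Hey PGCCs against daughter cells. SCD5 was nearly level in Hey, at 8.46, 7.30 and 6.85 TPM, and stood at 8.85, 9.17 and 38.2 TPM in SKOV3, while SCD in SKOV3 daughter cells was near its parental level. ELOVL4 stood at 0.66, 2.92 and 0.38 TPM in Hey and at 7.74, 5.09 and 10.9 TPM in SKOV3. Of 14 genes of triglyceride and lipid droplet metabolism none was 2-fold changed in Hey PGCCs and 4 were higher in SKOV3 PGCCs, of which 0 were after the trend subtraction. DGAT2, which makes triglyceride, was 2-fold higher in daughter cells of both lines, at 0.18, 1.34 and 3.48 TPM in Hey and at 3.08, 4.21 and 14.7 TPM in SKOV3.

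Of 21 genes of fatty acid oxidation 3 were at least 2-fold higher in Hey daughter cells and 2 in SKOV3 daughter cells, beside 6.31% and 15.1% of all genes. ACAA2, a mitochondrial thiolase, was the 1 shared gene, at 18.0, 13.6 and 42.2 TPM in Hey and at 1.13, 1.71 and 12.1 TPM in SKOV3. Its PGCC level was below that of daughter cells by more than 2-fold, with differences of -1.57 in Hey and -2.27 in SKOV3. HADH, a hydroxyacyl-CoA dehydrogenase of the same cycle, was lower in Hey PGCCs, at 36.6, 8.67 and 36.8 TPM, and stood at 41.1, 30.8 and 42.2 TPM in SKOV3. In Hey PGCCs the median difference of the 21 oxidation genes was 0.11, beside -0.63 for the 8 members of fatty acid synthesis. For the 23 further genes of fatty acid synthesis described above it was -0.04.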

How the data were processed

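RNA-seq libraries of 6 cultures (2 lines, 3 states, 1 library each) were used. Per the labels and the study's methods, reads were cleaned with fastp and quantified against the hg38 transcriptome with salmon 0.14.1, and the authors deposited the transcript levels per gene symbol as TPM, without counts. TPM keeps no sequencing depth, so no counting error was computed, and whether the libraries kept strand and how transcripts were summed per symbol is not given in the sources used here. TPM is a share of the transcripts of a column, so a change of abundant transcripts moves all other values.

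Differences were taken on log2(TPM + 1), called at 2-fold, and set beside the share of the 14988 genes with a mean of at least 1 TPM past the same threshold. With 1 library against 1 there is no p-value. Both lines were fitted together with limma 3.58.1 (R 4.3.3, state and cell line, trended eBayes, Benjamini-Hochberg adjustment over all 14988 genes). The spread of a gene combines the disagreement between the lines (2 residual degrees of freedom) with a value borrowed from all genes. This brought the total degrees of freedom to 7.335, so the standard errors do not measure the disagreement between the lines alone. The scripts were tested on simulated data. GC content and length came from the GENCODE 44 canonical transcript (13351 genes), and trends were removed by lowess (fraction 0.3) in Python 3.11.15 with statsmodels 0.14.6. Alternatives were a pseudocount of 0.1, the filter, median-ratio scaling, mitochondrial transcripts left out, the GC and length trend removed, a 1.5-fold threshold and, for limma, no line term and no trend.

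The 30 genes and all other lists were chosen with earlier results of these data known. All 30 are named. From the other lists the text names genes 2-fold changed the same way in both lines with at least 1 TPM in each line, and otherwise up to 2 genes with the largest change. RNF139, HADH, ABCB1 and the neighbours of CYP51A1 were named after their values were seen. Some genes of the pathway are not reported here.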

Additional observations from a re-analysis of the deposited data

Results flagged for a closer look

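SREBF2 was at least 2-fold changed in PGCCs against parental cells in both lines in opposite directions, and the Hey change minus the SKOV3 change was -2.38 on the log2 scale. After the GC and length trend was removed the changes were -0.90 in Hey and 0.59 in SKOV3, both inside 2-fold, and their difference was -1.50. MSMO1 was at least 2-fold changed in PGCCs against daughter cells in opposite directions, and the Hey change minus the SKOV3 change was 3.34, or 2.75 with that trend removed. Past 2-fold in opposite directions in PGCCs against parental cells was 1 of the 30 genes, and 184 of all 14988 tested genes. Against daughter cells 2 of the 30 were, and 426 of all 14988. With 1 library per state neither the SREBF2 nor the MSMO1 difference was tested. The part of culture medium and of the 3 or 7 days given for the SKOV3 PGCCs was not tested.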

How the results depend on the processing

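Counts of the 30 genes past 2-fold were recomputed under each alternative, and no gene called 2-fold changed turned its direction. Over the 6 comparisons within a line, 41 calls were made, of which 41 were kept with a pseudocount of 0.1, 41 with the filter, 35 under median-ratio scaling, 37 without mitochondrial transcripts and 25 with the GC and length trend removed. In Hey PGCCs against parental cells the genes that were lower numbered 4, and 2 without mitochondrial transcripts. In SKOV3 PGCCs against parental cells the genes that were higher numbered 9, and 1 with the GC and length trend removed, and those that were lower numbered 1, with 0 after that removal and 2 under median-ratio scaling. In SKOV3 PGCCs against daughter cells the removal left 1 of 2 higher and 3 of 5 lower. Of the 13351 genes with a transcript, 968 were then higher and 1402 lower in that comparison. Against parental cells 297 were higher and 345 lower. At a threshold of 1.5-fold the counts of higher and lower genes were 2 and 9 in Hey PGCCs against parental cells and the lower count was 4 in SKOV3, 2 and 10 in Hey daughter against parental cells with 13 higher in SKOV3, 7 and 10 in Hey PGCCs against daughter cells with 5 and 8 in SKOV3. For the parental lines, added after the data were seen, 9 were lower in Hey at 1.5-fold. The share of all tested genes past 1.5-fold was not computed, so the 1.5-fold counts cannot be set against all genes. The limma count was 0 under every alternative run. The causes were not tested, beyond the lower threshold admitting more genes. The limma fit pairs the states by line, and without the line term (3 residual degrees of freedom) it also called 0. Leaving out a replicate could not be done, since each state of a line has 1 library. TPM gives no depth, so precision at low levels such as those of TM7SF2 is unknown.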
